A study of Homo sapiens with 6 samples.

Results

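The 10 genes described here encode the NF-κB subunits (NFKB1, NFKB2, RELA, RELB and REL), the classical IκB inhibitors (NFKBIA, NFKBIB and NFKBIE) and the nuclear IκB proteins NFKBIZ and BCL3. They were taken by symbol, with no measured value in the rule, though earlier results of these data were known when they were chosen. All 10 were found among the 19792 genes of the series. The cells of both groups were BT-549, an established line of human triple-negative breast cancer (TNBC), transduced with pLKO-tet-puro, selected with puromycin and holding an shRNA against WDR5 that tetracyclines induce. One group of 3 cultures received 0.1% DMSO as vehicle, and the other group of 3 received 500 ng/ml doxycycline (DOX), which switches on the shRNA. WDR5 is a core subunit of the COMPASS H3K4 methyltransferases. DOX-treated cells with a control shRNA were not among the 6 samples.

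The study centred on the MUC1-C protein, the inflammatory NF-κB pathway and COMPASS in cancer cells. WDR5 was silenced in it to look for genes regulated by both MUC1-C and WDR5. The level used here is the authors' mean normalized count, which pools all 6 libraries, so the DOX-to-vehicle comparison was not analysed and no spread between cultures can be attached to any value. All orders given are therefore orders of pooled means, with no error, and where neighbours differ little they cannot be ranked. WDR5, the silenced gene, had a pooled mean normalized count of 1143, which does not show how far it was silenced. The level of each gene in vehicle or in DOX was likewise not analysed here.

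NF-κB proteins bind κB sites in DNA as dimers. The Rel subunits RELA, RELB and REL carry activation domains, whereas NFKB1 and NFKB2 encode precursors (p105 and p100) that are processed to the DNA-binding subunits p50 and p52. In resting cells, IκB proteins hold the dimers in the cytoplasm through ankyrin repeats, and p105 and p100 can do the same through their own repeats. Signals from cytokine receptors activate IκB kinase, IκBα (NFKBIA) is degraded, and RELA dimers enter the nucleus. NFKBIA is itself an NF-κB target, which closes a negative feedback loop. IκBζ (NFKBIZ) and BCL3 differ from the classical inhibitors in that they act in the nucleus on p50 and p52 dimers and can raise or lower target transcription.

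κB motifs were looked for in the promoters of the 10 genes, since several of them are known NF-κB targets. RefSeq promoter windows (GRCh38.p14, 250 bases before to 50 bases after an annotated start) were matched for 8 of the 10 genes, 14 windows in all, and RELB and NFKBIE had no entry. The 10-base κB motif, searched on both strands, was found in 9 of the 14 windows and for 7 of the 8 genes. Over all promoters it was found in 11.3% of 35116 windows and for 13.3% of 27305 genes. A stricter form of the motif, with A or T required at the sixth base, was found in the same 9 windows of these genes and in 5.91% of all windows. RELA, with 2 windows, was the gene without a match. Counting overlapping matches once, the motif lay at 12 places, of which 4 were in NFKB2. The match nearest to an annotated start is shown for each of the 7 genes, with the motif in capitals and 10 bases on either side. Each sequence is written 5′ to 3′ on the strand of its gene, so that a motif found on the other strand appears as its reverse complement.

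NFKB1: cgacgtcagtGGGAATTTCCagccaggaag
NFKB2: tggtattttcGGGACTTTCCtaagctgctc
REL: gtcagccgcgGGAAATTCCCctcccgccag
NFKBIA: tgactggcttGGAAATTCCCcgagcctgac
NFKBIB: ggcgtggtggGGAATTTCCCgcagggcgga
NFKBIZ: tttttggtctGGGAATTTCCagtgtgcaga
BCL3: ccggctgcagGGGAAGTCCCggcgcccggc

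The NFKB1 stretch lies at chr4:102501300-102501329 (plus strand), and its motif begins 49 bases before the start. That of NFKB2 lies at chr10:102395674-102395703 (plus strand), 21 bases before one of 3 annotated starts. The REL stretch is at chr2:60881518-60881547 (plus strand, 46 bases before the start), and that of NFKBIA at chr14:35404811-35404840 (minus strand, 81 bases before). NFKBIB has its stretch at chr19:38899932-38899961 (plus strand, 27 bases before), and NFKBIZ at chr3:101827757-101827786 (plus strand, 223 bases before). These 6 motifs lie upstream of the MANE Select transcript, the reference transcript of each gene. In BCL3 the motif, at chr19:44748700-44748729 (plus strand), begins 2 bases after the start and thus lies in the first exon. Among the motifs in capitals, those of NFKB1 and NFKBIZ are identical, and REL and NFKBIA hold the reverse complement. NFKBIB also holds the 10 bases of the NFKB1 motif, in an overlapping match that begins 28 bases before the start. A match describes the sequence alone, since binding was not measured in these libraries.

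The 10 genes lie on 8 chromosomes (GRCh38, GENCODE 44). The genes of the subunits are NFKB1 on chromosome 4 from 102501330 to 102617302, NFKB2 on chromosome 10 from 102394110 to 102402524, RELA on chromosome 11 from 65653599 to 65663090, RELB on chromosome 19 from 45001461 to 45038192 and REL on chromosome 2 from 60881491 to 60931612. Those of the inhibitors are NFKBIA on chromosome 14 from 35401079 to 35404749, NFKBIB on chromosome 19 from 38899700 to 38908893, NFKBIE on chromosome 6 from 44258166 to 44265788, NFKBIZ on chromosome 3 from 101827991 to 101861022 and BCL3 on chromosome 19 from 44747705 to 44760044. BCL3 and RELB are separated by 241.4 kb. The coding sequences of the MANE Select transcripts give proteins of 969 residues for NFKB1 and 900 for NFKB2, the precursors. For RELA, RELB and REL they give 551, 579 and 587 residues. By these transcripts the classical inhibitors are shorter, with 317 residues for NFKBIA, 356 for NFKBIB and 361 for NFKBIE, whereas NFKBIZ has 718 and BCL3 has 454. The longest annotated coding sequence of NFKBIE, used below for its coding-length level, has 1500 bases, more than the 1362 of BCL3.

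The pooled mean normalized counts ran from 131 for NFKBIE to 3862 for NFKBIZ. These counts grow with transcript length, so they show how much signal lies behind each gene and do not rank the genes by transcript level. NFKBIZ had a mean normalized count of 3862, above 92.2% of the 19792 genes. Among the subunits, RELA had 2745 (above 88.1% of genes), NFKB2 had 2423 (86.5%) and NFKB1 had 2163 (84.7%). RELB had 794 (68.3%) and REL had 371 (57.6%). NFKBIA, at 2139, was above 84.5% of genes, and BCL3, at 1315, above 77.0%. NFKBIB had 450.5 (59.8%) and NFKBIE had 131 (47.3%). All 10 genes thus reached a mean normalized count of 10, as did 13548 of the 19792 genes, and 9 of the 10 exceeded the median of all genes (187). Against the genes with a mean of at least 10 alone, whose median is 677, REL, NFKBIB and NFKBIE lay in the lower part, above 38.0%, 41.3% and 23.1% of them.

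Levels were therefore compared between genes after division by length. The per-length level is the mean normalized count divided by the length of the longest annotated transcript and scaled to sum to 1000000 over the 18626 genes with a length, and it is given as parts per 1000000 (ppm). On this scale NFKBIZ was at 124 ppm, RELA at 108, NFKBIA at 105, NFKB2 at 89.3 and BCL3 at 88.0. These 5 genes lay above 91.1%, 89.8%, 89.4%, 87.5% and 87.3% of all genes with a length. RELB (44.2) and NFKB1 (38.6) formed a middle group with NFKBIB (25.7), and NFKBIE (6.40) and REL (4.14) were the lowest. The median over the 10 genes was 66.1, beside 22.6 over the 13227 genes that had a length and reached a mean normalized count of 10, and 8 of the 10 genes were above that median.

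**Figure D1:**
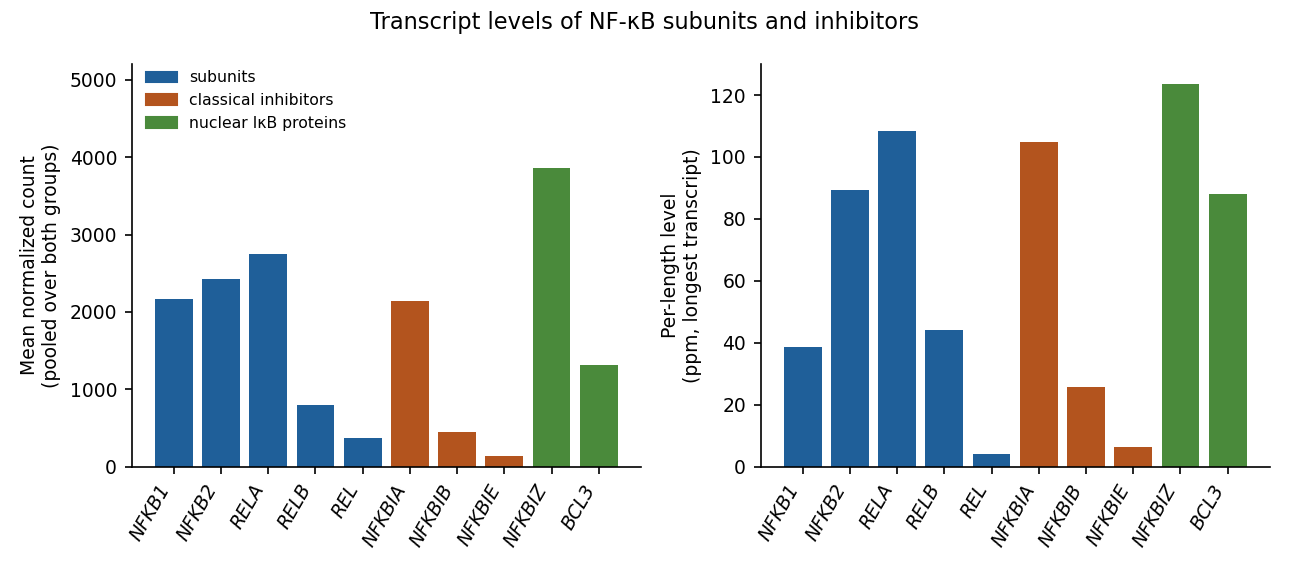
Bars give the authors' mean normalized count, pooled over all 6 libraries (left), and the per-length level in ppm (right) of the 5 subunits, 3 classical inhibitors and 2 nuclear IκB proteins. The bar of NFKBIZ is at 3862 in counts and 124 per length, and division by length sets NFKB1 (2163 in counts, 38.6 per length) apart from NFKB2 (2423 and 89.3).

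Transcript length was the choice that moved these values most. The MANE Select transcripts run from 1192 bases for NFKBIB to 11108 bases for REL, of which 84.1% is noncoding, against 34.2% for RELA and 38.8% for NFKBIA. NFKB1 has a longest transcript of 7040 bases and a MANE Select transcript of 4055 bases, and its per-length level was 38.6 by the first and 53.8 by the second. For NFKBIA the same change gave 105 and 138. The position of NFKBIA among the 10 genes ran from 1 (coding length and MANE Select) to 6 (median transcript), and that of NFKBIZ from 1 to 3. For NFKB1, NFKB2, RELA, RELB, NFKBIZ and BCL3 the median transcript is shorter than the longest coding sequence (679 against 1653 bases in RELA). In NFKBIA it is longer (1537 against 951 bases), as it is in REL, NFKBIB and NFKBIE. Division by the median transcript thus raises the first group of genes against NFKBIA. RELA stayed between positions 2 and 3. REL and NFKBIE held the lowest positions, 9 and 10, in either order under all 4 lengths, with REL between 3.37 and 8.47 ppm and NFKBIE between 3.40 and 6.40. NFKBIZ, RELA and NFKBIA were the upper 3 under each length except the median transcript, where NFKB2 took position 3. Neither these upper genes nor REL and NFKBIE can be ordered among themselves.

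**Figure D2:**
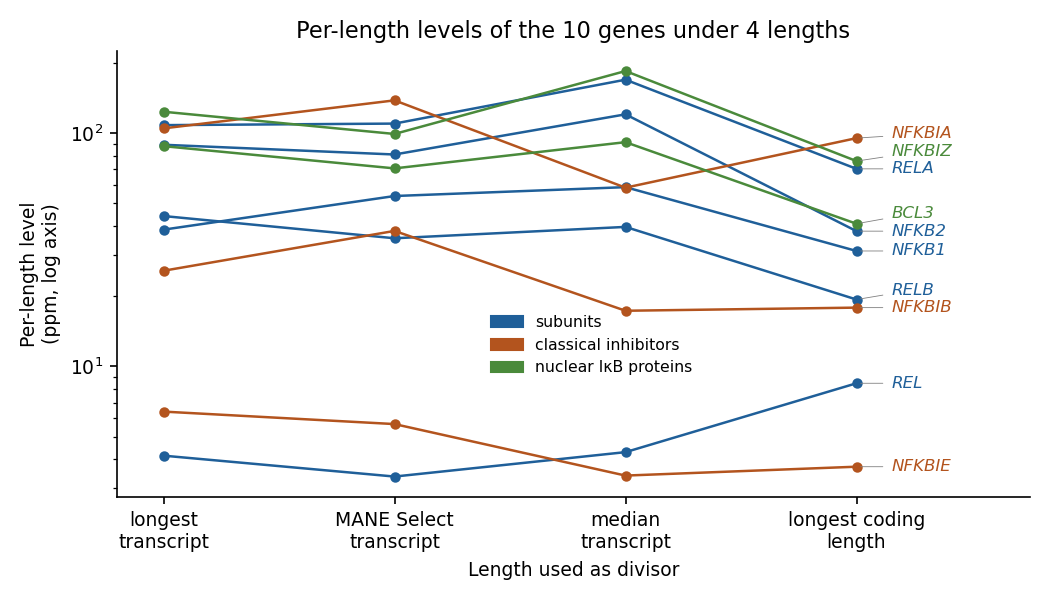
Lines join the per-length level (ppm, log axis) of each of the 10 genes under 4 lengths used as divisor, coloured as subunits, classical inhibitors and nuclear IκB proteins. NFKBIA crosses several genes and is at 58.4 with the median transcript, whereas REL and NFKBIE are at most at 8.47 and 6.40 under the 4 lengths.

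Of the subunits, RELA, the transactivating partner of p50 in the canonical pathway, accounted for 38.1% of the summed per-length level (284 ppm), and REL, best known from lymphoid cells, for 1.46% (1.09% to 5.05% under the lengths tried). The level of RELA was 26.2 times that of REL by the longest transcript, 32.7 times by MANE Select, 39.6 times by the median transcript and 8.31 times by coding length, where the long noncoding part of REL is left out. RELB, the partner of p52 in the noncanonical pathway, was lower than RELA by a factor of 2.45 by the longest transcript, and of 2.45 to 4.28 under the lengths tried. NFKB1 and NFKB2, the sources of p50 and p52, together accounted for 44.9% of the subunit level. The ratio of NFKB1 to NFKB2 was 0.432 by the longest transcript and 0.822 by coding length, below 1 under all 4 lengths. Of the REL MANE Select transcript, 51.3% is shared on the same strand with an annotated noncoding RNA gene (ENSG00000267520), and how reads of that stretch were assigned is not given in the sources used here. No other member's MANE Select exons overlapped exons of another gene.

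Of the classical inhibitors, NFKBIA accounted for 76.6% of their summed per-length level of 137 ppm, between 73.8% and 81.5% under the lengths tried. NFKBIA encodes IκBα, the rapidly degraded and resynthesized inhibitor, and its level was 4.08 times that of NFKBIB (IκBβ) and 16.4 times that of NFKBIE (IκBε). Under the lengths tried these ratios ran from 3.37 to 5.33 and from 16.4 to 25.7. Compared with RELA, its main binding partner, NFKBIA was at 0.968 of the RELA level by the longest transcript, but at 0.344 by the median transcript and 1.35 by coding length. The nuclear IκB proteins summed to 212 ppm, more than the classical inhibitors, and NFKBIZ was 1.40 times as high as BCL3 (1.40 to 2.02 under the lengths tried). By MANE Select length this order turned, with 182 for the classical inhibitors and 170.0 for the nuclear proteins, and by coding length both sums were 117. The 5 inhibitors together were at 349 ppm, 1.23 times the 5 subunits. The ratio was 1.24 by MANE Select and 1.40 by coding length. By the median transcript, which for several of these genes is shorter than the coding sequence, it was 0.905. With no division by length it was 0.930. The order of these sums thus changed with the divisor, and the data do not show which is larger.

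The transcripts of the 10 genes differed widely in GC content. The GC content of the MANE Select transcript was 66.4% for BCL3, 64.9% for RELB, 64.6% for NFKBIB, 61.2% for NFKB2, 60.4% for NFKBIE, 58.6% for RELA, 53.0% for NFKBIA and 50.1% for NFKB1. It was 46.2% for NFKBIZ and 38.4% for REL. The median over 15680 genes was 48.8%, and 8 of the 10 genes were above it. GC content can change how well a fragment is recovered in library preparation, and its part in these levels was not tested.

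The other genes of the pathway were taken from lists fixed by name. By the longest transcript their levels ran from 0.0130 to 1388 ppm, beside 4.14 to 124 ppm for the 10 genes. The lists together hold more genes, and both ends of their range are target genes. The kinase list ran from 3.14 to 123 ppm, and the deubiquitinases and other negative regulators from 7.16 to 79.2. Highest and lowest genes below are by the longest transcript, and some of these places change with the length. The kinase list holds genes of the IκB kinase complex, activating and related kinases and the TAB adaptors. Its 10 genes had a median of 35.6 ppm per length, and all 10 reached a mean normalized count of 10. TAB2 (123), an adaptor of the TAK1 kinase, and MAP3K7 (67.7), which encodes TAK1, were the highest, and IKBKE (3.14), an IKK-related kinase, was the lowest. The kinase genes IKBKB and CHUK were at 55.2 and 37.4, the regulatory subunit IKBKG at 24.0, and MAP3K14 (NIK), which starts the noncanonical pathway, at 33.8. The 18 adaptors and ubiquitin ligases had a median of 29.5, with BIRC2 (91.2) and CUL1 (87.7) highest by the longest transcript. By coding length SKP1 (507) and UBE2N (311) were the highest, with BIRC2 at 67.6 and CUL1 at 41.3. By the median transcript SKP1 (306) led and CUL1 was at 31.3. UBE2V1 (1.59) was lowest in that list, but it shares its name and locus with an annotated read-through gene (PEDS1-UBE2V1), so its count is uncertain.

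By the longest transcript, each of the other brakes on the pathway had a lower level than NFKBIA (105), and by the median transcript 1 of the 9 was above it. The 9 deubiquitinases and other negative regulators had a median of 30.2, led by TNIP1 (79.2), which binds A20, and NKRF (56.9), a nuclear repressor. PDLIM2 (7.16) was the lowest, and TNFAIP3, which encodes A20 and is like NFKBIA a known feedback target, was at 14.9. Of 4 other genes named for IκB or for ankyrin repeats, IKBIP (62.0) and NFKBIL1 (38.9) were the highest. NFKBID (2.97), another nuclear IκB protein, was the lowest. NFKBID was thus far below NFKBIZ (124) and BCL3 (88.0).

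Among receptors that feed the pathway, TNFRSF1A (311), the main receptor of TNF, and LTBR (135), the lymphotoxin-β receptor of the noncanonical pathway, were the highest. The second place changed with the length. TNFRSF12A was above LTBR by MANE Select (155 against 118) and by coding length (93.5 against 81.0). TLR2 (0.194) was the lowest and had a mean normalized count of 6.47, and TLR4 was not analysed here. The 16 target genes known for κB sites spanned the widest range, with a median of 68.4. They ran from SOD2 (1388), mitochondrial superoxide dismutase, and CXCL1 (934), a neutrophil chemokine, down to LTB (0.0130). SOD2 was at 8064 by the median transcript and 9959 by coding length. TNF itself was at 0.0914, with a mean normalized count of 1.22 over the 6 libraries. By the longest transcript, 6 of the 16 targets and 3 of the 9 receptors were above RELA, whereas TAB2 was the only gene above RELA in the kinase list, and none was in the lists of adaptors, brakes and other IκB-related genes. By coding length the counts above RELA were 10 of the 16 targets, 4 of the 9 receptors, 1 of the 10 genes of the kinase list and 3 of the 18 adaptors. By the median transcript they were 5, 0, 0 and 3 in the same order, and by MANE Select 5, 3, 0 and 0.

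**Figure D3:**
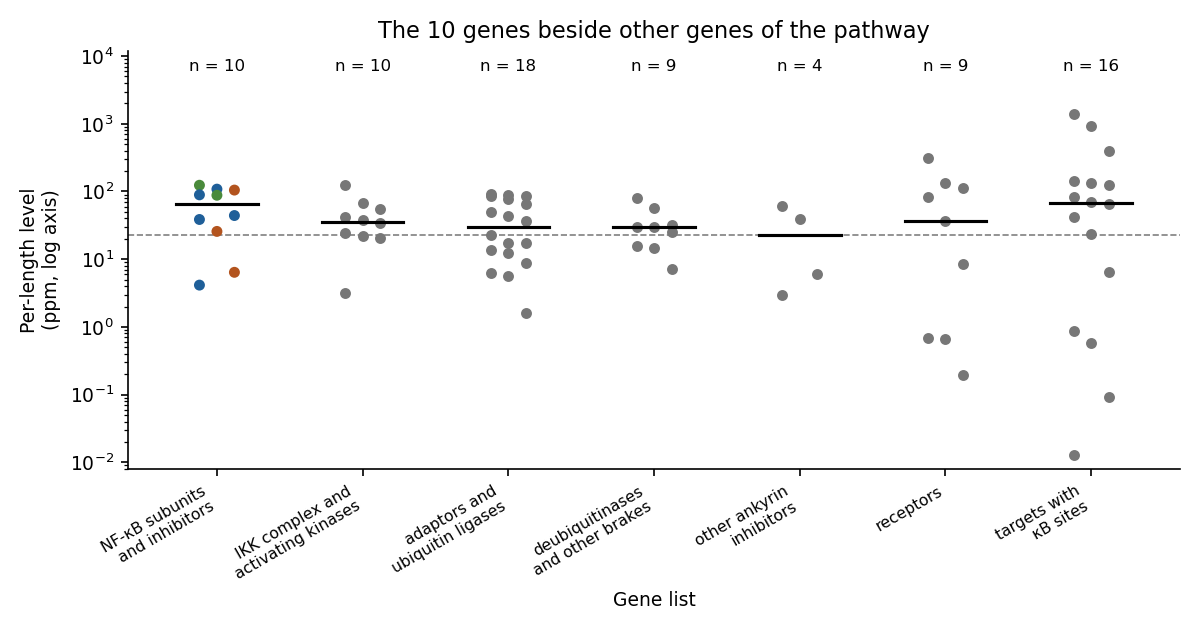
Points give the per-length level (ppm, log axis) of the 10 NF-κB subunits and inhibitors (coloured as in the other plots) and of 6 lists of other pathway genes (grey), with a black line at each median and a dashed line at 22.6, the median of genes that reached a mean normalized count of 10. By the longest transcript, the 10 genes have a median of 66.1, the kinase list (which also holds adaptors and a regulatory subunit) 35.6 and the target genes 68.4. On that scale the targets spread from 0.0130 to 1388.

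The labelled cell type was checked by its markers on the same per-length scale. By the longest transcript, all 10 markers of mesenchymal-like breast cancer cells were above RELA, from CDH2 (128) to VIM (2252). By the median transcript 8 of the 10 were above RELA, by coding length 9 and by MANE Select 9. The 10 epithelial and luminal markers had a median of 0.995, from PGR (0.00772) to KRT18 (26.2), and the 4 basal epithelial markers a median of 0.751, from KRT5 (0.0510) to TP63 (7.75). Of the 7 leukocyte markers, CD3E and MS4A1 were not analysed here, and CD68, a lysosomal protein that is not restricted to leukocytes, was the highest at 129. The 3 endothelial markers were at most at 0.0528 (PECAM1), and CDH5 (0.00525) was the lowest.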

How the data were processed

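Stranded poly(A) RNA-seq libraries of 3 vehicle-treated and 3 DOX-treated cultures of BT-549 cells were analysed. By the paper's methods, the authors aligned reads to GRCh38 with STAR and normalized the counts with DESeq2, and the gene counter is not given in the sources used here. The paper writes the build with a release suffix, and whether this names the annotation release is not stated. The authors deposited 1 signal value per gene, the normalized count averaged over every library and not divided by length. The 5 other columns of the authors' table hold their own DESeq2 comparison (log2 fold change, standard error, Wald statistic, p-value and adjusted p-value), and none was used here. Per-library values were not analysed here, so depth is unknown, no interval can be given and no test was made. The pooled means sum to 26551206.

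Lengths, positions and GC content came from GENCODE 44. Of 19792 symbols, 17729 matched directly, 897 through a RefSeq synonym and 1166 did not match, and the matched genes held 98.9% of the sum. Each level was divided by the longest transcript and scaled to sum to 1000000. The calculation was run on simulated counts with known lengths, which checks the arithmetic and not the choice of length. Named genes were the 10 members, the 2 highest and the lowest gene of each pathway list, and the highest and lowest of each marker list, of which 1 is not reported here. CHUK, IKBKB, IKBKG, MAP3K14, TNFAIP3, TNF, SKP1, UBE2N and TNFRSF12A were named in addition after their values were seen. The members and lists were chosen with earlier results of these data known. The alternatives were the median transcript, the coding length, a total without the 10 highest genes, ranks over genes with a mean of at least 10 and, chosen after seeing the data, the MANE Select transcript. Python 3.11.15 was used with numpy 2.4.6, pandas 2.3.3 and matplotlib 3.10.9.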

Additional observations from a re-analysis of the deposited data

How the results depend on the processing

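With no replicate values, any change at 3 significant digits was counted as a move. The summed per-length level of the 5 subunits was 284 parts per 1000000 with the longest transcript and also with the MANE Select transcript, 393 with the median transcript, 167 with the coding length and 298 without the 10 highest genes in the total. The sum of the 5 inhibitors was 349, and 352, 356, 234 and 365 under the same alternatives. The ratio of inhibitors to subunits was 1.23, and 1.24 with the MANE Select transcript, 1.40 with the coding length, 0.905 with the median transcript and 0.930 with no division by length. The ratio therefore lay on either side of 1, by construction of the divisor alone. The value of 0.905 rests on median lengths that for several of these genes are shorter than the coding sequence. No paired analysis was possible because the value used pools all 6 libraries, and for the same reason the count-based, leave-one-out and pseudocount alternatives set for per-library values were not run. What depth limits is unknown here. TNF and LTB, with mean normalized counts of 1.22 and 0.144, rest on almost no reads.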
